A study of Mus musculus with 17 samples.

Results

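In NIH 3T3 cells, fibroblasts of mouse embryo origin grown as a line, 28 transcripts had an array signal that was lower with platelet-derived growth factor (PDGF) in every background of 1 experiment. They were chosen from a table of 8 oligonucleotide arrays, on which a probe set of short probes reports a transcript as a signal on a linear scale. Some probe sets may match several transcripts. A probe set was taken when its mean signal on the 4 arrays without PDGF was at least 150 units and when log2(signal + 36) with PDGF minus without was at or below −0.5 in each of 4 pairs of arrays. Of 22626 probe sets that are not controls, 12622 had that mean signal and 37 met the rule, 0.293% of them. Left out were 7 probe sets of Txnip, Ccng2, Ddit4 and Rgs2 and 2 with no gene listed, and 0 were of histone genes, which leaves 28 probe sets of 28 genes. The PDGF differences of the 8-array table chose the members, so the members' values there are given below as a description with no test.

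All arrays carry total RNA of quiescent NIH 3T3 cells, 1 array per condition. In the Src experiment, which fills the 8-array table, cells received vehicle, SU6656 at 2 µM (an inhibitor of Src family kinases), UO126 at 10 µM (an inhibitor of MEK, the kinase that activates ERK) or LY294002 at 7.5 µM (an inhibitor of PI3K), each without PDGF and with PDGF at 25 ng/ml for 1 h. A separate table of 9 arrays of another design holds a MEK experiment (untreated, UO126 at 10 µM, PD98059, another MEK inhibitor, at 7.5 µM, and PDGF at 25 ng/ml alone and with either inhibitor). The sources used here do not give the time of PDGF in the MEK experiment. The same table holds a second run of part of the Src experiment, called the repeat below, with vehicle, PDGF for 1 h and PDGF for 1 h with SU6656. The control of the MEK experiment is called untreated and those of the others vehicle-treated. The labels do not say that arrays came from separate cultures, so a p-value reflects just how far these arrays differ, which may be technical, and all cells are of 1 line.

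PDGF binds receptor tyrosine kinases on fibroblasts and engages the ERK, PI3K and Src pathways. One known branch runs from PI3K to AKT, which phosphorylates FOXO transcription factors and keeps them out of the nucleus, so that genes which FOXO factors drive in quiescent cells lose transcription. A transcript can fall soon after a stimulus only as fast as its existing mRNA is degraded, so early falls are seen mainly for short-lived RNAs. In cultures measured in bulk, fewer cells holding a transcript and less of it per cell cannot be told apart.

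Members belong to several classes. The FOXO and p53 network is represented by Foxo3 itself, Sesn1 (a sestrin, which restrains mTORC1), Trp53inp1 (a stress protein linked to autophagy and cell death) and Bcl6 (a zinc finger repressor). Other regulators of transcription and RNA are Sox4 and Lyl1 (transcription factors), Smad6 (an inhibitory SMAD of BMP signalling), Purg (a nucleic acid binding protein), Mepce (the capping enzyme of the 7SK RNA) and Pnrc2 (a nuclear receptor coactivator that also promotes mRNA decapping). Snhg1 and Snhg5 are host genes of small nucleolar RNAs, and Rpl37a encodes a protein of the large ribosomal subunit. Lpl (lipoprotein lipase), Angptl4 (a secreted inhibitor of that lipase), Stard5 (a lipid transfer protein) and Ptgds (a prostaglandin D synthase) act on lipids. Dtx2 is a ubiquitin ligase of the Notch pathway, Cep131 and Ttc30b encode proteins of centriolar satellites and of cilia, Srr is serine racemase, Poli a DNA polymerase, and Gprc5b, Slc22a17 and Slc17a9 are a receptor and transporter family members of the membrane. Mbp (myelin basic protein), Lypd8 and Gpank1 complete the set.

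Promoters of 19 member genes were found in RefSeq's GRCm38.p6 sequences, with 22 start sites. Shown here are the 250 bases before the start, 5′ to 3′, of Sesn1 and Pnrc2, the members with the smallest p in the arrays that the rule did not use, of Bcl6, a FOXO target, and of the snoRNA host genes Snhg1 and Snhg5. Capitals mark matches on either strand to any of 9 motifs searched: FOXO (TGTTTAC), E-box (CACGTG), N-box (CACNAG), BMP-SMAD (GGCGCC), CRE (TGACGTCA), AP-1 (TGANTCA), GC box (GGGCGG), the serum response element CArG and the core promoter element TATA box, searched as the letters TATAAA. Matches of the same motif can overlap one another.
Sesn1, first start, chr10:41810324-41810573 (plus strand): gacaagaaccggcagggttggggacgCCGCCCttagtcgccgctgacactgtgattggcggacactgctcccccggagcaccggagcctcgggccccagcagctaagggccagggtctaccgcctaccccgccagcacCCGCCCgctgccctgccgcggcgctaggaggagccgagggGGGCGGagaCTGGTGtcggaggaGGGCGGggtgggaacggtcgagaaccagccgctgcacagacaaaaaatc
Sesn1, second start, chr10:41887189-41887438 (plus strand): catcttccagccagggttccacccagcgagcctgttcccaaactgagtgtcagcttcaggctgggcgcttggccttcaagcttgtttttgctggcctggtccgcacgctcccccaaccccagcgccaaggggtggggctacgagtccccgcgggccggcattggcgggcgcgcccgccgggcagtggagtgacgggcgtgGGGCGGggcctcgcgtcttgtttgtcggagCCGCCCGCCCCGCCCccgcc
Pnrc2, chr4:135873847-135874096 (minus strand): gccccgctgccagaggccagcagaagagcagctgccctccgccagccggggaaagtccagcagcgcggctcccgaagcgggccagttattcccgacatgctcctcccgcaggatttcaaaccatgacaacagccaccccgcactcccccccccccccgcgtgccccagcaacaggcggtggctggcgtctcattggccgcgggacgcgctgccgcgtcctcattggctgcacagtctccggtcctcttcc
Bcl6, upstream start, chr16:23988853-23989102 (minus strand): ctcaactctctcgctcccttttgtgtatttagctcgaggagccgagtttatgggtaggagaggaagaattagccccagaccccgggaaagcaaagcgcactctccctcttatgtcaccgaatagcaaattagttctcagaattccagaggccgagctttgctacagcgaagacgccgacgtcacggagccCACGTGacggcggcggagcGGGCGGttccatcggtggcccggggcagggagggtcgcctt
Snhg1, chr19:8723237-8723486 (plus strand): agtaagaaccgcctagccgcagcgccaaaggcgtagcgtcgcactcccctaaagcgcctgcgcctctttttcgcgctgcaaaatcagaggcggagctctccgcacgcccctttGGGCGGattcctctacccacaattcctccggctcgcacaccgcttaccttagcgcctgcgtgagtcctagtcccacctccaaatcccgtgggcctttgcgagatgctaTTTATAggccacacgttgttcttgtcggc
Snhg5, chr9:88522898-88523147 (minus strand): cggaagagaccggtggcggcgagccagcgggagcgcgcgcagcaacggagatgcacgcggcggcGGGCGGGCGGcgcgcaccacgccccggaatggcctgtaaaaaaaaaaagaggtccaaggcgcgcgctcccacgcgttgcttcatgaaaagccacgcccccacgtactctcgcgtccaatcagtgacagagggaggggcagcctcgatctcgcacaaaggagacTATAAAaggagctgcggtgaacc

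In these windows the capitals are GC boxes at both Sesn1 starts, with an N-box at the first, and an E-box and a GC box in Bcl6. Snhg1 has 1 GC box and Snhg5 overlapping ones, each with a match to the TATA letters. That of Snhg5, 23 bases before the start, reads TATAAA. The match in Snhg1, 29 bases before the start, is on the opposite strand and reads TTTATA as shown. The Pnrc2 window has 0 matches. Across the 19 genes, 10 had a GC box, which 32.74% of all 32851 promoters hold, 7 had an N-box (36.67% of all), 3 a TATA box (12.37%), and 1 each an E-box (6.02%), a BMP-SMAD element (9.59%) and an AP-1 site (6.75%). The FOXO motif was found in 1 member, Stard5, and in 3.17% of all promoters, and CRE and CArG were found in 0 members and in 1.55% and 1.47% of all. A member gene was counted when any of its start sites had a match, whereas the share over all is per promoter, so the counts and shares are not quite alike. These are letter matches in 250 bases and carry no statement on binding.

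The differences that chose the members were modest. Means over the 4 pairs ran from −1.53 (Rpl37a) to −0.61 (Angptl4), 7 members averaged a fall of 2-fold or more, and only Rpl37a was past 2-fold in all 4 pairs. The SD between pairs ran from 0.09 (Snhg5) to 0.69 (Cep131). The median difference was −0.75 with vehicle, −0.64 with SU6656, −0.88 with UO126 and −0.79 with LY294002, against −0.06 to −0.05 over all 12622 probe sets of that level. The pair closest to the threshold was the vehicle pair for 9 members, the SU6656 pair for 9, and the UO126 and LY294002 pairs for 5 each. Levels were low to moderate, with a mean signal without PDGF of 166 to 1101 units, a median of 397 and 12 members under 300. For 22 members all 4 arrays with PDGF lay below all 4 without, which 5.61% of the 12622 probe sets did. Read with the rule, this count says nothing more, since the rule used that contrast. The same rule turned upwards gave 156 probe sets, although its minimum on signal without PDGF works against rises.

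**Figure D1:**
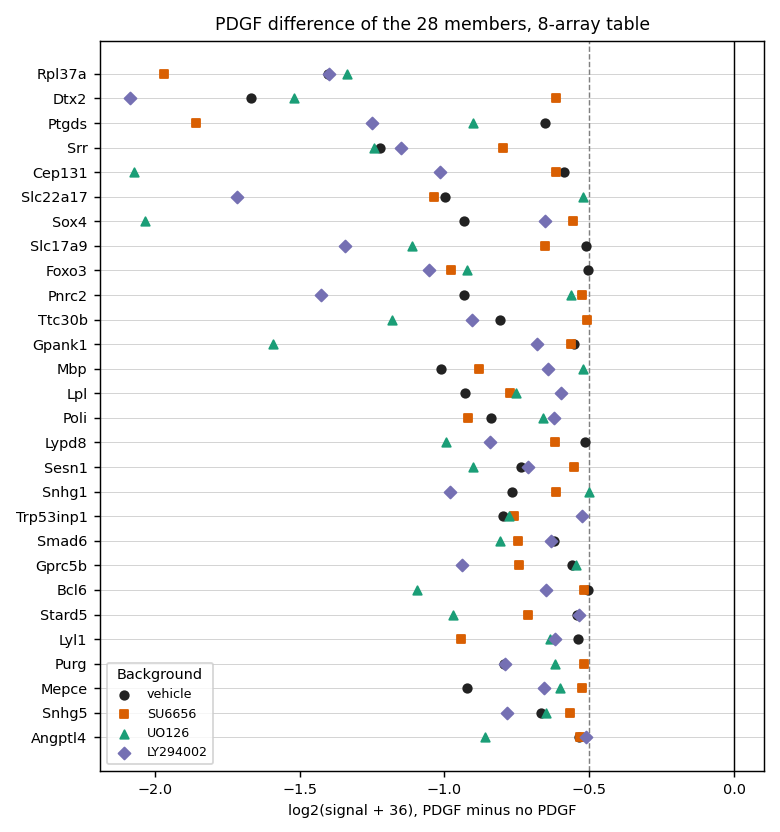
Difference in log2(signal + 36) between arrays with and without PDGF (x axis) for the 28 members (y axis, ordered by mean), 1 point per background of the 8-array table. The dashed line marks the threshold of −0.5, which all points meet by choice; means run from −1.53 for Rpl37a to −0.61 for Angptl4.

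The value of each array is given next for the members of the FOXO and p53 network. Sesn1 had signals without PDGF of 745.3 (vehicle), 776.4 (SU6656), 1005.9 (UO126) and 935.6 (LY294002), and with PDGF of 433.6, 517.7, 522.3 and 556.7 in the same order. All its arrays with PDGF were below all without. Trp53inp1 had 721.3, 685.4, 935.0 and 876.9 without and 399.5, 389.8, 530.0 and 598.4 with PDGF, again apart. Foxo3 had 792.2, 1108.6, 757.5 and 1167.9 without and 547.9, 545.4, 383.2 and 544.5 with PDGF. The 2 highest values without PDGF were those with SU6656 and LY294002, and the groups did not overlap. Bcl6 was dimmer, with 170.8, 146.8, 183.1 and 204.9 without and 109.9, 91.6, 66.7 and 117.6 with PDGF. Its groups did not overlap either, and the lowest array was PDGF with UO126.

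Among the regulators of RNA and transcription, Pnrc2 had 1012.1, 768.5, 929.0 and 791.2 without and 513.3, 522.5, 616.4 and 271.8 with PDGF. Its array with PDGF and LY294002 stood lowest. Smad6 had 229.1, 216.7, 264.6 and 192.7 without and 136.3, 114.5, 135.7 and 111.5 with PDGF, a fall of like size in every background (−0.70 ± 0.09, SD over 4 pairs). Sox4 had 539.7, 516.4, 935.9 and 392.9 without and 265.9, 339.7, 201.3 and 236.5 with PDGF. Both its highest and its lowest array had UO126, without and with PDGF, so its difference was −2.03 with UO126 and −0.93 to −0.56 elsewhere. The other 3 of this class, Mepce, Purg and Lyl1, had means of −0.68.

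Of the snoRNA host genes, Snhg5 had the smallest SD between pairs of all members (0.09) and Snhg1 one of 0.21. Snhg5 had 942.4, 795.4, 1089.0 and 1231.4 without and 579.7, 524.7, 681.6 and 699.3 with PDGF. The LY294002 array was the highest on both sides, and the groups were apart. Snhg1 had 1073.8, 900.3, 810.0 and 1621.6 without and 616.0, 575.8, 561.2 and 803.4 with PDGF. Its margin was narrow, as the lowest array without PDGF (810.0, UO126) and the highest with it (803.4, LY294002) nearly met. Rpl37a had 556.4, 750.0, 916.6 and 645.6 without and 188.3, 164.9, 341.5 and 222.8 with PDGF, well apart.

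Of the genes of lipid metabolism, Lpl had 664.9, 855.3, 1139.3 and 874.8 without and 332.4, 485.2, 660.6 and 565.5 with PDGF. Every inhibitor array was above the vehicle array of its side, and PDGF with UO126 stood at 0.994 times the vehicle array. Angptl4 had 375.9, 330.6, 874.0 and 618.0 without and 248.1, 217.5, 465.5 and 422.4 with PDGF, and its groups overlapped. With PDGF it stood at 1.24 times vehicle under UO126 and 1.12 times under LY294002, so its fall within those pairs started from a raised level. Ptgds had 295.7, 268.5, 570.1 and 289.9 without and 175.0, 48.0, 288.3 and 100.9 with PDGF, with overlap through the array of PDGF with UO126. Stard5 averaged −0.69, and its groups did not overlap.

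Among the remaining members, Srr had 454.9, 688.9, 563.9 and 527.4 without and 174.3, 381.1, 217.3 and 217.6 with PDGF, with both SU6656 arrays the highest of their side. Dtx2 had 207.3, 338.9, 220.2 and 268.8 without and 40.5, 208.7, 53.4 and 35.9 with PDGF. There the array with PDGF and SU6656 overlapped the group without PDGF and stood at 1.01 times vehicle. Cep131 had 206.3, 200.0, 363.8 and 237.2 without and 125.2, 118.1, 59.2 and 99.2 with PDGF, again with the extremes on the UO126 arrays. Poli had 186.4, 202.9, 182.7 and 136.4 without and 88.2, 90.3, 102.3 and 76.0 with PDGF, and these did not overlap. The others averaged −1.07 (Slc22a17), −0.90 (Slc17a9), −0.85 (Ttc30b and Gpank1), −0.76 (Mbp), −0.74 (Lypd8) and −0.70 (Gprc5b), and of these Slc17a9 and Gprc5b overlapped between groups, as did Lyl1. Just inside the threshold lay Foxo3 (−0.504 in its weakest pair), Bcl6 (−0.503) and Snhg1 (−0.502), and just outside it Cbx2 (−0.4997), Cfap410 (−0.495) and Zfp93 (−0.495), so no gap sets the members off.

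**Figure D2:**
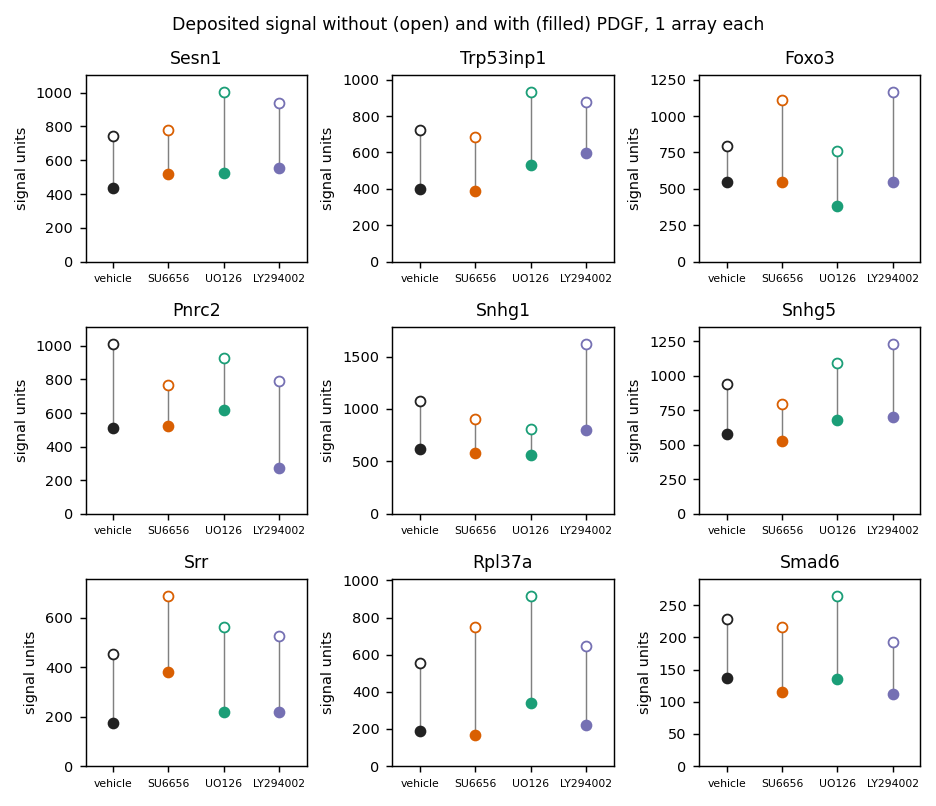
Deposited signal (y axis, linear units from 0) of 9 members in each background (x axis) of the 8-array table, open circles without PDGF and filled circles with PDGF, 1 array per circle. Sesn1 spans 433.6 to 556.7 with PDGF and 745.3 to 1005.9 without, whereas the 2 groups of Snhg1 nearly meet at 803.4 and 810.0.

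Many of the genes have further probe sets on the same 8 arrays, which the rule did not choose. For 9 members the chosen probe set was the only one named for the gene. The other 19 had 39 more, 24 of them (15 genes) with a mean signal of at least 150 without PDGF. Of these 24, 13 (9 genes) were lower with PDGF in all 4 pairs, as were 18.79% of all probe sets of that level, and 9 (7 genes) averaged −0.5 or less, as did 3.13% of all. Their median was −0.29, against −0.06 over all. For 8 of the 15 genes the brightest other probe set was brighter than the chosen one. Over the 15 genes the brightest other probe sets had a median of −0.26, against −0.76 at the chosen ones. All other probe sets share RNA and arrays with the chosen probe sets and are not replicates of them.

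Probe sets concurred for some genes and not for others. Trp53inp1 averaged −0.72 at the chosen probe set and −0.67 at another, Pnrc2 −0.86 and −0.69, and Sesn1 −0.73 and −0.54. Snhg1 had −0.72 at the chosen probe set and −0.55, −0.35 and 0.13 at 3 others. Sox4 was lower in all 4 pairs on 4 of its 5 other probe sets, at −0.60 to −0.26 against −1.04 at the chosen one. Bcl6 had −0.40 at a brighter probe set, with 0.15 in the vehicle pair, against −0.69. Dtx2 had −0.56 at a brighter one, with 0.16 in the UO126 pair, against −1.47. Stard5 had −0.07 at a brighter one and −0.54 at another, against −0.69, and Gprc5b −0.29 against −0.70. In contrast, the Rpl37a probe sets that were not chosen had −0.03 and −0.06, against −1.53. Their mean signals without PDGF were 22192.3 and 26029.3 units, against 717.2 at the chosen one, so the fall was seen only at the far dimmer probe set. Lpl had 0.00 against −0.76, Srr 0.01 and −0.11 against −1.10, Foxo3 −0.13 against −0.86, Gpank1 −0.13 against −0.85 and Mepce 0.29 against −0.68, the latter with 1.71 in the UO126 pair. For these 6 genes the other probe sets of at least 150 units thus lay at −0.13 or above. Dimmer ones had −0.30 for Foxo3 (27.6 units, lower in all 4 pairs) and −0.28 for Srr (35.1 units). By the endings of their names (_x_at or _s_at), the chosen probe sets of Rpl37a, Sesn1, Pnrc2 and Angptl4 may match transcripts of several genes. Those of Srr, Ptgds, Poli, Dtx2, Lpl, Mbp, Slc22a17 and Foxo3 end in _a_at and were not set aside as of that kind, though they too may match several transcripts. Which transcript or transcript form each probe set reports was not tested.

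**Figure D3:**
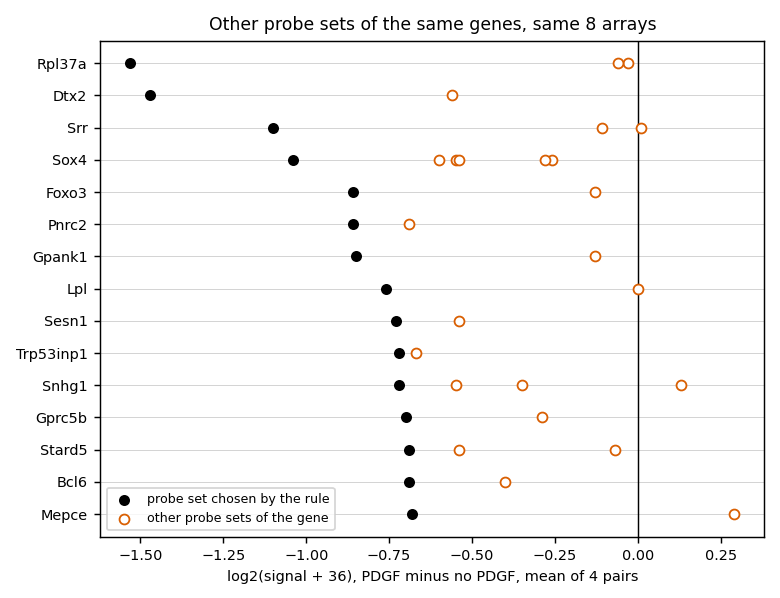
Mean over 4 pairs of the difference in log2(signal + 36) with and without PDGF (x axis) for 15 member genes (y axis); filled circles are the probe sets chosen and open circles the other probe sets of the gene with mean signal of at least 150 without PDGF. Open circles of Trp53inp1 and Pnrc2 lie close to the filled ones (−0.67 and −0.69), and those of Rpl37a, Srr and Lpl lie near 0.

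The 9-array table gave a check on arrays that the rule did not use. Its values were quantile normalised and log2 transformed after adding 21.1 units, and PDGF was tested over 4 pairs (untreated, UO126, PD98059 and the vehicle of the repeat) with limma, with the pair as a block and Benjamini-Hochberg adjustment over 8696 probe sets. Of the 28 genes, 7 have no named probe set there, and 2 (Cep131 and Lyl1) fell below a filter on low signal, which leaves 19. Each is given at its probe set of highest mean. Only Sesn1 passed, as 1 of 19 lower (0.267% of 6366 genes were called lower) and 0 higher (1.67% of all). By unadjusted p under 0.05, 7 of 19 were lower (7.96% of all genes) and 0 higher (6.08%).

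Falls were smaller than in the table that chose them. The median of the 19 was −0.19, against −0.04 over all genes, and for 18 of 19 the mean was nearer to or above 0 than in the 8-array table. That count is not like for like. It sets normalised values at the probe set of highest mean against deposited values at the chosen probe set, with different added constants. In all 4 pairs, 6 of 19 were lower (13.5% of all genes were), namely Sesn1, Pnrc2, Ttc30b, Dtx2, Mepce and Snhg1, and 2 of 19 were below −0.25 in all 4 (1.62% of all), Sesn1 and Pnrc2. Snhg1 was lower in the UO126 pair by only −0.01 after normalisation, and its deposited signals there were 1044.5 without and 1044.6 with PDGF. Lower values were seen in 12 of 19 in the untreated pair (54.5% of all genes), 14 with UO126 (52.7%), 10 with PD98059 (53.8%) and 14 in the repeat (53.9%). The share in the PD98059 pair was near that of all genes. The 3′ to 5′ signal ratio of Gapdh, a sign of RNA quality, was 0.788 to 1.13 without and 0.820 to 0.907 with PDGF there, against 0.739 to 0.773 and 0.741 to 0.787 in the 8-array table, and its part in the difference was not tested.

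Sesn1 was the member whose fall recurred most evenly. Its signals were 661.4 untreated, 959.4 with UO126, 1099.8 with PD98059 and 928.6 with the vehicle of the repeat, and with PDGF 459.2, 642.2, 716.0 and 628.4. The values with PDGF overlapped the group without it only through the untreated array, and each pair fell, by −0.58 to −0.52. The mean was −0.55 (SE 0.112, limma adjusted p = 0.0403, lower in 4 of 4 pairs). Pnrc2 had 2186.0, 2669.1, 2881.0 and 2484.1 without and 1422.2, 2152.2, 2287.3 and 1352.1 with PDGF. Each pair fell, less with the MEK inhibitors (−0.31 and −0.35) than without (−0.61 and −0.88), and the mean of −0.54 (SE 0.116, limma adjusted p = 0.0504) missed the threshold. The call for Sesn1 was lost without any 1 of the 8 arrays (limma adjusted p = 0.0965 to 0.199, log2 −0.56 to −0.54), without the variance trend (0.145) and without the pair as a block (0.573).

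Other members did not pass the threshold, and many differed between pairs. Bcl6 had the lowest mean (−0.83, SE 0.274, limma adjusted p = 0.232), from −1.58 in the repeat and −1.40 with PD98059 to 0.13 with UO126. Ttc30b had −0.46 (SE 0.149), lower in all pairs, and Gpank1 −0.44 (SE 0.165), with −0.73 to −0.59 in the MEK experiment and 0.17 in the repeat. Another Gpank1 probe set was lower in all 4 pairs, with a mean of −0.60 (limma adjusted p = 0.145). Dtx2 had −0.34, most of it in the untreated pair (−0.81), and Mepce −0.31. Sox4 had −0.15, lower in 2 of 4 pairs, while its other probe set was lower in all 4, with a mean of −0.29 on deposited values. Snhg5, so steady in the 8-array table, ran from −0.96 in the repeat to 0.36 with UO126. Foxo3 had −0.07 (SE 0.156), Rpl37a −0.05 (SE 0.0862), Ptgds 0.01, Angptl4 0.02 and Lpl 0.08, none past the threshold. A dimmer Angptl4 probe set was lower in all 4 pairs, with a mean of −0.92 (limma adjusted p = 0.163), so its probe sets disagree in direction. Smad6 had −0.35 in the untreated pair, −0.34 in the repeat, 0.08 with UO126 and −0.08 with PD98059. Levels of the tables cannot be set against each other, and their probe sets for a gene differ.

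**Figure D4:**
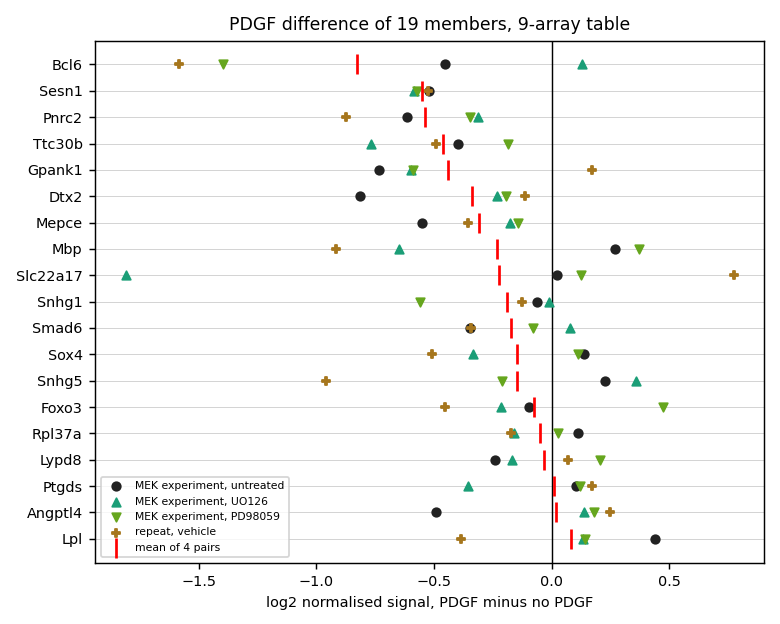
Difference in log2 normalised signal with and without PDGF (x axis) in each of 4 pairs of the 9-array table for 19 members (y axis, ordered by the mean of 4 pairs, drawn as a red tick). Sesn1 falls by −0.58 to −0.52 in the 4 pairs, while Bcl6 runs from −1.58 to 0.13 and Rpl37a stays between −0.17 and 0.11.

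How the members' levels differed with each inhibitor, averaged over arrays without and with PDGF, is a separate contrast. In an additive limma fit of the 8-array table each inhibitor was set as 2 arrays, without and with PDGF, against the same 2 vehicle arrays. Its residual holds the differences in PDGF effect between pairs, which the rule bounds from one side. Of the 28 members 0 were called for any inhibitor by limma. Over all 15839 probe sets, 0.309% were called lower and 0.202% higher with LY294002, 0.0253% and 0.0189% with UO126, and 0.107% and 0% with SU6656.

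By unadjusted p under 0.05, LY294002 had 8 members higher (6.34% of all probe sets) and 5 lower (6.96%). The 8 were Angptl4 (0.68, SE 0.163), Lpl (0.53), Purg (0.51), Snhg1 (0.46), Mepce (0.40), Trp53inp1 (0.39), Sesn1 (0.31) and Snhg5 (0.31). Foxo3 had 0.26 and Bcl6 0.15, and none of these values passed the adjusted threshold. The 5 lower were Slc17a9 (−1.25, SE 0.322), Slc22a17 (−0.79), Pnrc2 (−0.60), Stard5 (−0.41) and Gprc5b (−0.38). Limma adjusted p for these 13 was 0.112 to 0.373.

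UO126 had 7 members higher by unadjusted p (4.27% of all probe sets) and 0 lower (4.82%). Largest were Angptl4 (1.01, SE 0.163, limma adjusted p = 0.112) and Lpl (0.85, SE 0.133, limma adjusted p = 0.0961), which encode an inhibitor and its enzyme, followed by Ptgds (0.78), Rpl37a (0.75), Gprc5b (0.41), Trp53inp1 (0.39) and Sesn1 (0.35). With SU6656, 4 were higher (3.88%), Dtx2 (1.17, SE 0.349), Srr (0.79, SE 0.168), Lpl (0.43) and Gprc5b (0.38), and 1 was lower (4.13%), Ptgds (−0.73). Medians over the 28 were 0.15 with LY294002, 0.21 with UO126 and 0.03 with SU6656, against 0.00 over all probe sets. Without PDGF, 18 of the 28 members stood above the vehicle array with LY294002, 20 with UO126 and 14 with SU6656. The rule used these arrays, and the share over all probe sets was not counted, so these counts are a description only. These comparisons share the vehicle arrays.

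**Figure D5:**
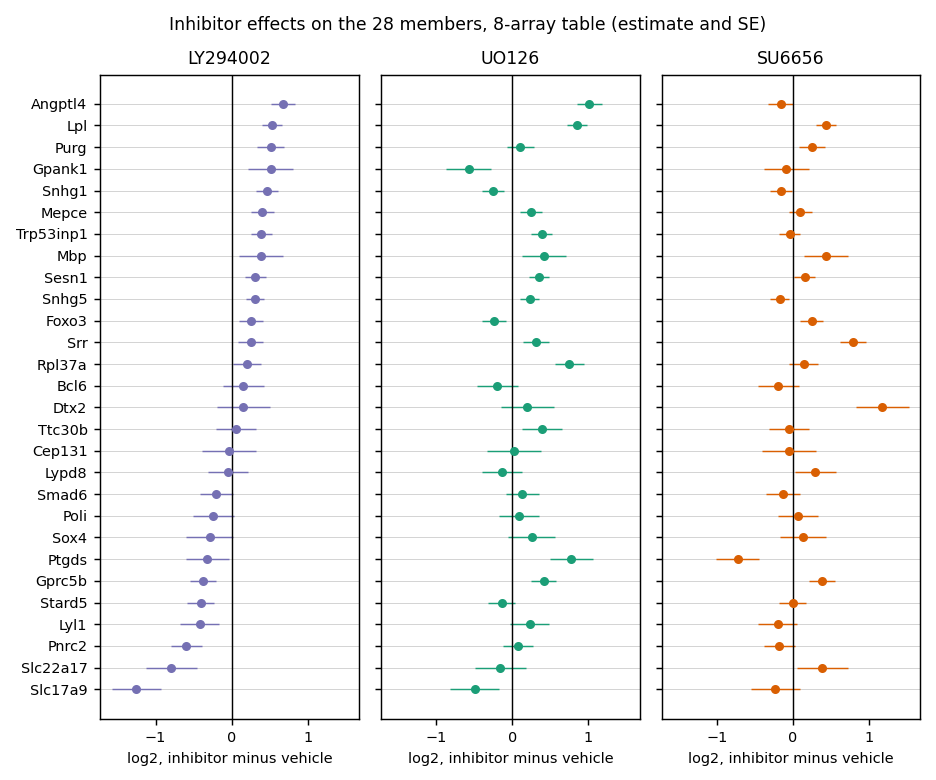
Estimated effect of LY294002, UO126 and SU6656 (x axis, log2, inhibitor minus vehicle, 2 arrays against 2, bars are SE) for the 28 members (y axis, ordered by LY294002). Angptl4 and Lpl lie highest with both LY294002 (0.68 and 0.53) and UO126 (1.01 and 0.85), and 0 members passed the adjusted threshold.

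The 9-array table showed the MEK inhibitors on other arrays, with UO126 and PD98059 as replicates of each other and only 1 untreated and 1 PDGF array in their experiment. Without PDGF 0 of 19 members were called (0.0157% of all genes lower, 0% higher), and 2 were higher by unadjusted p under 0.05 (3.63% of all) and 0 lower (2.89%), Sox4 (0.85, SE 0.253) and Sesn1 (0.60, SE 0.191). With PDGF 0 were called (0% of all in either direction), while 4 were higher by unadjusted p (3.85%) and 0 lower (3.35%), Sox4 (0.93, SE 0.253), Pnrc2 (0.67, SE 0.166), Smad6 (0.64, SE 0.271) and Sesn1 (0.55, SE 0.191). The signal of Sox4 was 903.5 untreated, 2369.6 with UO126 and 1531.9 with PD98059, and with PDGF 991.9, 1862.9 and 1636.3, so every array with a MEK inhibitor lay above both without. Angptl4 and Lpl had −0.44 (SE 0.277) and 0.21 (SE 0.242) for the 2 MEK inhibitors without PDGF, neither past the threshold. SU6656 under PDGF was a single array of the repeat, set against the level fitted for PDGF alone, with its spread assumed to be that among the other arrays. It gave 0 limma calls (0% of all) and 0 members with an unadjusted p under 0.05 (3.16% of all lower, 2.51% higher).

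Genes of the pathways to which members belong were counted in both PDGF fits, each at its probe set of highest mean. On the 8 arrays 0.824% of 9219 genes were called lower and 2.51% higher, and on the 9 arrays 0.267% and 1.67%. For the 8 arrays the members, and the genes that the rule names, are left out of the list counts, since these values chose them. The shares and the median over all genes still hold them, so list and background are not quite alike. Of the 17 FOXO targets that remain there, 1 was lower and 2 higher, with a median of −0.23 against −0.05 over all genes. The lower one was Gabarapl1, an autophagy gene (−0.51, SE 0.0804, limma adjusted p = 0.00792). Klf9, a Krüppel-like factor that FOXO factors also induce, rose by 0.63, and Cited2, a transcriptional co-regulator, by 1.14. In the list counts of the 9 arrays the members and the genes that the rule names were kept. There 4 of 19 FOXO targets were lower, Ccng2, Txnip, Ddit4 and Sesn1. Ccng2, Txnip and Ddit4 are named by the rule and Sesn1 is a member, so no FOXO target apart from these was called lower. Higher were 2, Cited2 (0.62) and Klf9 (0.61). The median was −0.03 against −0.04, and Gabarapl1 had −0.19 (SE 0.121), not past the threshold.

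Other lists held few falls. Of 24 growth arrest and antiproliferative genes other than members 0 were lower and 5 higher, among them Btg2, and on the 9 arrays 0 of 23 were lower and 3 higher. Receptor tyrosine kinases had 1 of 22 lower, Ephb3, an ephrin receptor (−0.89, SE 0.178), and 1 higher, Epha2 (2.60). On the 9 arrays 2 of 20 were lower, Ephb3 again (−0.92, SE 0.181) and Pdgfra, a PDGF receptor (−0.65), and Epha2 was higher (1.67). BMP and SMAD targets had 1 of 7 lower, Eng (−1.29), and 1 higher, Smad7 (0.64), the inhibitory relative of Smad6, and 0 of 10 lower in the 9-array table, where Id1 was higher (0.75). For Notch genes 0 of 12 were lower and 1 higher, Hes1 (0.81), and on the 9 arrays 0 of 6 passed. Homeobox factors had 0 of 34 lower in the first table and 0 of 33 in the second, proapoptotic genes 0 of 12 and 0 of 9, and nuclear receptors 0 of 21 in each. Krüppel-like factors had 0 of 10 lower on either set of arrays, with 5 higher on the 8 arrays and 3 on the 9, at medians of 0.59 and 0.61. Of Wnt pathway genes 0 of 20 passed on the 8 arrays, and 1 of 19 was lower on the 9, the coreceptor Lrp6 (−0.73, SE 0.143, against −0.28 on the 8 arrays). Clock genes had 0 of 14 and 0 of 13 lower with 3 higher in each, and TGF-beta receptors 1 of 9 lower (Eng) and 0 of 10.

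Markers were checked against the label of the cells. Of 13 fibroblast markers 12 were kept in the 8-array table, at 348 to 38918 units, and 0 passed the threshold for PDGF. Of macrophage and leukocyte markers 5 of 6 were kept at 87.7 to 372 units, of epithelial 3 of 5 at 84.9 to 227, of endothelial 2 of 4 at 85.1 to 187, and of adipocyte and muscle markers 3 of 6 at 85.6 to 581. Among all of these 1 passed, the epithelial Cldn3, which rose by 1.42. Of the 13 fibroblast markers in the 9-array fit 1 passed, Pdgfra, given above. Their levels there were 53.0 to 26557 units, with Vim (53.0) and Lum (67.6) the dimmest. Other markers kept there reached 1100 units (Cd14, macrophage and leukocyte), 343 (Cdh1, epithelial), 67.1 (Pecam1, endothelial) and 1309 (Acta1, adipocyte and muscle).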

How the data were processed

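The authors deposited intensity values on a linear scale, 1 per probe set and array, in a table of 8 and a table of 9 arrays. Every array of the deposited intensity values had a 2% trimmed mean of 500.2 to 500.4, so they had been scaled to a common mean. Software and genome build: not given in the sources used here. Array medians were 174.7 to 198.4 and 134.1 to 156.3 units, and the number of arrays limits the precision.

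Control probe sets were left out. Symbols came from the platform annotation, updated through Entrez IDs for 20351 of 20380 and 10817 of 10833 probe sets with 1 gene, against a RefSeq table of GRCm38.p6 used for names. The members were chosen on deposited values. For tests, values were quantile normalised within each table and transformed as log2 after adding the 20th percentile (36.2 and 21.1 units), which understates changes of dim probe sets. A filter removed the dimmest 30% by mean and left 15839 and 8696 probe sets. limma 3.58.1 under R 4.3.3 gave the fits (eBayes with a trend, Benjamini-Hochberg, threshold 0.05, 3 residual degrees of freedom). Pairing follows the design: 1 experiment and 1 inhibitor state per pair. The fits were tested on simulated data.

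Described in full were the 10 members with the lowest value in their weakest pair and those past the threshold, or below −0.25 in all 4 pairs, of the 9-array table. The members of the FOXO and p53 network, Snhg1 and Angptl4 were added after their values were seen. Members and gene lists were chosen with earlier results of these data known. The tables were never tested together. Alternatives covered scaling, added constant, filter, trend, block, threshold and arrays left out.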

Additional observations from a re-analysis of the deposited data

Results flagged for a closer look

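The Lpl values differed in sign between 2 experiments, and also between probe sets. In the Src experiment its chosen probe set was lower with PDGF in all 4 pairs (−0.93 to −0.60), by choice, whereas in the MEK experiment its probe set of highest mean was higher in all 3 pairs, by 0.24 on average. The repeat gave −0.39. On the Src arrays the brighter Lpl probe set had −0.22 (vehicle), −0.12 (SU6656), 0.17 (UO126) and 0.16 (LY294002), and on the 9 arrays the dimmer one had 0.37 (untreated), 0.53 (UO126), −0.65 (PD98059) and 0.13 (repeat). This difference was not tested, and the values come from different probe sets.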

How the results depend on the processing

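The number of members depended on the choice of rule and scaling. It was 28, and 16 with a minimum signal of 300, 63 with a threshold of −0.4, 2 with −0.75, 7 with an added constant of 100, 12 after quantile normalisation and 8 after scaling to a common median. It was 24 without probe sets that may match several genes by their names, which leaves out those of Rpl37a, Sesn1, Pnrc2 and Angptl4. Probe sets with names ending in _a_at were kept in that count. Leaving out 1 pair gave 63 to 94, with all 28 among them. Since this only relaxes the condition on the pairs, their staying in is no check of the members. On the 9 arrays, Sesn1 alone was called lower, a count of 1, which became 2 with an added constant of 100 or with the lowest 50% left out (Sesn1 and Pnrc2), 0 without the variance trend, 0 without the pair as a replicate block and 0 without any 1 array. The count of 6 members lower in all 4 pairs was 2 with a threshold of −0.25, and 6 to 8 without 1 pair, which can only keep or raise it. For the inhibitors, 0 members were called under every alternative run for these fits. Each fit has 3 residual degrees of freedom, and a member that was not called is not shown to be unchanged.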
